A study of Mus musculus with 30 samples.

Results

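The genes described here are 31 genes of sterol and fatty acid synthesis, picked by gene symbol from the 51904 genes of a mouse retinal pigment epithelium (RPE) expression table. The list holds 7 enzymes of the mevalonate arm and 11 enzymes from squalene synthesis to cholesterol. It also holds 5 regulators of the SREBP transcription factors, 3 genes of sterol carriage and efflux, and 5 genes of fatty acid synthesis. All 31 symbols were found, each on 1 row. Genes were tested where 5 or more samples reached an FPKM of 1, and all 31 met this, as did 16741 genes in all. FPKM counts fragments relative to transcript length and library size, so levels of different genes are compared per length.

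Cells make cholesterol from acetyl-CoA through the mevalonate arm to farnesyl diphosphate, then through squalene and lanosterol, and they make fatty acids from citrate through acetyl-CoA and malonyl-CoA. When sterol in the endoplasmic reticulum falls, the carrier Scap takes the SREBP precursors to the Golgi for cleavage, and the freed fragments switch on these enzymes. When sterol is plentiful, the Insig proteins hold Scap back. The RPE sits under the photoreceptors, takes up the lipid-rich tips of their outer segments every day, and passes cholesterol on through efflux pumps such as Abca1.

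The samples came from male C57BL/6 mice, wild type and 10 to 13 weeks old, with 1 eye per mouse and 5 mice at each of 6 zeitgeber times (ZT0, ZT2, ZT4, ZT9, ZT14 and ZT19, which the labels set at clock hours 7, 9, 11, 16, 21 and 2). ZT0 is lights-on by convention, and the light schedule is not given in the sources used here. The retina was peeled off, the eyecup was kept in RNAlater, and clumps of RPE were later picked from the choroid with forceps, so other tissue of the eye could come along. Of the 30 eyes, 16 were left and 14 right, and no group carried a treatment or an altered allele. The sides were uneven over the times. All eyes of ZT4 and most of ZT14 were left, while most of ZT2 and of ZT19 were right. Eye side and time are therefore partly confounded, as in ZT2 against ZT14.

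An estimate from the steps between low FPKM values put the depth at 12.5 to 23.0 M reads per sample (M: mega), which is not a deposited count. The library ZT14 replicate 3 stood apart, with 12754 genes above 0 against 16723 to 19374 in the others. It listed 557 genes at 0 whose median elsewhere was at least 10 FPKM. For a number of results that rest on it, though not for all, values without it are also given. The RPE label was met by high levels of visual cycle genes (median 2405 FPKM for Rgr and 934 FPKM for Rpe65), while Best1, an RPE chloride channel gene, was listed at 0 in 8 samples. Keratins of the corneal and conjunctival surface (median 2034 FPKM for Krt12), fast muscle genes and myelin genes were also abundant, and their values stand beside the results they move with.

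The stretch just before the start of a gene is where SREBP and its partner NF-Y bind in many of these enzymes, so the 250 bases upstream of 4 genes that carry the main comparisons are shown. RefSeq windows on GRCm38.p6 were matched for 24 of the 31 genes. The stretches end at RefSeq starts, which for Hmgcs1 and Srebf2 differ from the gene starts given further below. The end of the Srebf2 stretch lies within the gene as placed there. The sequences run 5′ to 3′ on the strand of the gene, and capitals mark 2 motifs found on either strand: CCAAT, which NF-Y recognises, and the sterol response letters TCACNCCAC. Hmgcs1 (chr13:119690101-119690350, plus strand) held both, Mvd (chr8:122443423-122443672, minus strand) and Srebf2 (chr15:82147019-82147268, plus strand) held CCAAT, and Fasn (chr11:120824548-120824797, minus strand) held CCAAT 3 times, with a pair of matches overlapping.
Hmgcs1: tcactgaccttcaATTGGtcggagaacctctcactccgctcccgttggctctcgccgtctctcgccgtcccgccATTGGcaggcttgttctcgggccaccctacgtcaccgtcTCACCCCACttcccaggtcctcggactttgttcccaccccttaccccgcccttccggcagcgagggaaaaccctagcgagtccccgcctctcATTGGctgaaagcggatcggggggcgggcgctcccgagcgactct
Mvd: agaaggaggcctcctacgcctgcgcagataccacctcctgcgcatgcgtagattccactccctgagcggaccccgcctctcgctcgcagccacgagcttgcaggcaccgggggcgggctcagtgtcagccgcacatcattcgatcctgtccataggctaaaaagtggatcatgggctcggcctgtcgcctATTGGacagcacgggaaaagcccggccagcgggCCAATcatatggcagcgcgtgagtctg
Srebf2: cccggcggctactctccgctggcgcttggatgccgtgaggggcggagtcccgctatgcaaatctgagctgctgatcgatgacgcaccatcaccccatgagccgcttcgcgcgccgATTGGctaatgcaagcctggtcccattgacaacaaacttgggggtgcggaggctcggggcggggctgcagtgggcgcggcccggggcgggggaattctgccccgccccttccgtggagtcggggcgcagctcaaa
Fasn: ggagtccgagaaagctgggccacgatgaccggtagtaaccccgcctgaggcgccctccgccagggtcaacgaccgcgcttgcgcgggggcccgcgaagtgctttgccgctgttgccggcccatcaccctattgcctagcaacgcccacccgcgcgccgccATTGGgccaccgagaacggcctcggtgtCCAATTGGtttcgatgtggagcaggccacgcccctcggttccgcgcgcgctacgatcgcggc

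Counted over windows of 300 bases (250 before to 50 after the start), CCAAT was in 21 of the 32 windows of these genes and in 37.4% of all 32851 windows in the table. The sterol response letters were in 1 of 32 windows, that of Hmgcs1, and in 1.24% of all windows. The E-box CACGTG, which clock factors recognise, was in 7 of 32 windows (of Abca1, Dhcr7, Hsd17b7, Insig1, Sc5d and Scap) and in 7.15% of all. These 7 include overlapping windows of Scap that hold the same site. By gene it was in 6 of the 24 matched and in 8.09% of all genes with windows. A match describes letters only, and so does a missing match.

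Median levels over the 30 samples spanned from 234 FPKM for Scd2, a stearoyl-CoA desaturase, to 8.33 FPKM for Hsd17b7, a sterol reductase of the late pathway. In the mevalonate arm the medians were 95.6 FPKM for Hmgcs1, 87.1 for Fdps, 50.4 for Pmvk, 27.9 for Mvk, 14.9 for Idi1, 13.8 for Acat2 and 13.0 for Mvd. The enzymes from squalene synthesis to cholesterol lay at 81.7 FPKM for Msmo1, 56.6 for Sc5d, 49.8 for Sqle, 46.5 for Cyp51, 37.3 for Ebp, 31.9 for Dhcr7, 27.0 for Fdft1, 24.2 for Lss, 19.1 for Tm7sf2 and 16.2 for Nsdhl, besides Hsd17b7. Transcript levels of some neighbouring steps were several-fold apart, such as Idi1 and Fdps, and those of others were close, such as Mvd and Idi1. Enzyme levels were not measured. Among the regulators the medians were 130 FPKM for Insig2, 123 for Srebf1, 57.0 for Insig1, 43.4 for Scap and 39.2 for Srebf2. Sterol carriage and efflux had low medians, with 13.6 FPKM for Abcg1, 12.8 for Abca1 and 12.1 for Stard4. After Scd2, the fatty acid genes had medians of 56.8 FPKM for Acly, 51.1 for Scd1, 46.7 for Fasn and 13.7 for Acaca. The spread between samples was narrowest for Msmo1 (52.5 to 126 FPKM) and wide for Scd1 (24.0 to 679.5 FPKM) and Lss (3.89 to 120.2 FPKM), and Idi1 was listed at 0 in 1 sample.

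The study asked how RPE transcripts vary over a day, and for these genes the test gave no call: 0 of 31 passed an adjusted p of 0.05 in the 24 h cosine fit (limma, Benjamini-Hochberg over 16741 genes), where 18 genes, or 0.108% of all tested, did. There were likewise 0 of 31 for any difference among the 6 times (0.0717% of all genes), for day against night (0.0299%), for ZT0 against ZT19 (0.0418%), for ZT2 against ZT14 (0.0597%) and for ZT9 against ZT19 (0.0478%). At an unadjusted p below 0.05 the cosine fit held 4 members (Mvd, Srebf2, Hmgcs1 and Fdps; 8.76% of all genes) and the test of any difference held 6 (those but Fdps, with Sqle, Sc5d and Tm7sf2; 8.67% of all genes). In the 5 other steps between neighbouring times 0 of 31 passed (0.0% of all genes in 4 steps and 0.0119% for ZT19 against ZT14). At an unadjusted p, ZT2 against ZT0 held 1 (Msmo1; 3.0% of all genes), ZT4 against ZT2 1 (Hmgcs1; 3.38%), ZT9 against ZT4 0 (3.48%), ZT14 against ZT9 2 (Mvd and Insig2; 6.74%) and ZT19 against ZT14 3 (Mvd, Tm7sf2 and Scd1; 9.62%). ZT14 replicate 3 held the lowest Mvd value and the highest Insig2 and Tm7sf2 values of the 30 samples. Step counts without it are not given here. In these bulk samples, fewer cells of a type and less RNA per cell cannot be told apart.

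Day (ZT2, ZT4 and ZT9, 15 samples) was set against night (ZT14 and ZT19, 10 samples) as a difference of mean log2(FPKM + 1), with its SE. The added 1 makes changes of low genes look smaller. The names day and night assume light through ZT9 and dark at ZT14 and ZT19, since the schedule is not given. Of the 31 genes, 8 were higher by day at an unadjusted p below 0.05, or 25.8% of them: Hmgcs1, Mvd, Fdps, Sqle, Lss, Hsd17b7, Sc5d and Srebf2. None was lower by day at that level. Over all genes the shares were 6.21% higher and 4.33% lower. Without ZT14 replicate 3 the count was 6, with Mvk and Stard4 in and Fdps, Lss, Hsd17b7 and Sc5d out. Some tissue markers moved with this count. At the same unadjusted p, 4 of 10 surface epithelium genes were higher by day and 0 lower. For skeletal muscle 0 of 10 genes were higher and 6 lower, and for immune markers 0 of 7 were higher and 3 lower. No other marker list had more than 1 gene higher or 2 lower, and the RPE list had 0 and 1 of 10. With the surface epithelium score as a term in the fit, 3 of the 31 genes were higher by day at that p, against 12 with the adipocyte score. The shares over all genes are those of the main fit. Counts without a sample or with a score have no such share beside them.

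**Figure D1:**
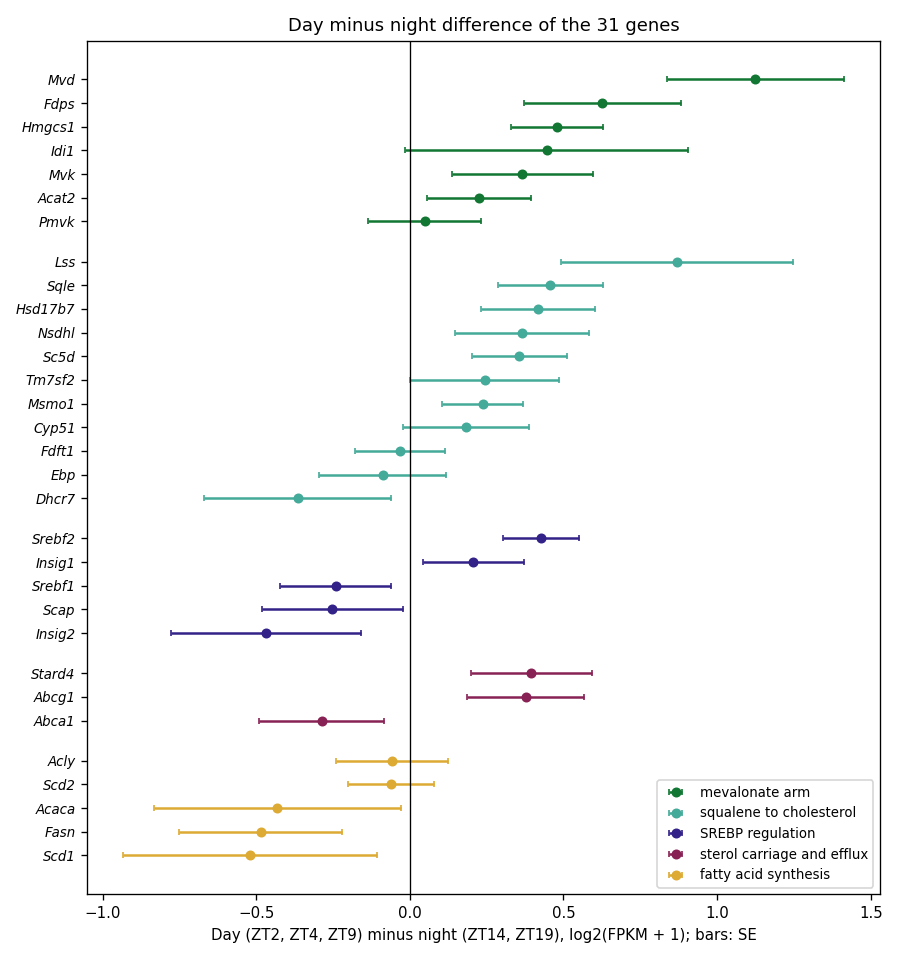
Day minus night difference on the log2(FPKM + 1) scale (x axis) for each of the 31 genes (y axis, grouped by role); points are fitted differences and bars 1 SE, from 15 day and 10 night samples. All 7 mevalonate genes lie to the right of 0 and all 5 fatty acid genes to the left, and none passed the adjusted threshold.

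The sign of the day minus night difference was not the same in all roles. Day minus night had a median of 0.45 over the 7 mevalonate genes (7 above 0), 0.24 over the 11 enzymes from squalene synthesis on (8 above 0) and -0.43 over the 5 fatty acid genes (0 above 0). For the 18 cholesterol enzymes together 15, or 83.3%, were above 0, beside 53.3% of all genes tested, whose median was 0.02. The SREBP regulators had a median of -0.24, with 2 of 5 above 0. Without ZT14 replicate 3 the medians were 0.50 for the mevalonate genes, 0.31 for the enzymes from squalene synthesis on, -0.13 for the SREBP regulators and -0.10 for the fatty acid genes, of which 1 (Scd2) was then above 0. With the scores of 5 marker lists (surface epithelium, skeletal muscle, myelin, rod and stroma) as terms they were 0.16, 0.07, 0.08 and 0.04, and 3 of the 5 fatty acid genes were above 0. Most of these single differences lay within 2 SE of 0, and genes of 1 pathway in the same samples are not independent of each other. Fitted cosine peaks fell between ZT0 and ZT8 for 18 of 31 genes (37.9% of all genes), between ZT8 and ZT16 for 2 (29.2%) and between ZT16 and ZT24 for 11 (32.9%). The SE of a peak ran from 1.17 h (Srebf2) to 9.24 h (Fdft1, amplitude 0.04 ± 0.10), so some peaks could fall in another bin.

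In the mevalonate arm, Hmgcs1, Mvd and Fdps had the smallest p values in the cosine fit, each at its highest mean at ZT2. Hmgcs1 (chr13:119690379-119708260, plus strand, mm10) makes HMG-CoA, the substrate of the rate-limiting step. It measured 107, 88.0, 81.9, 126 and 105 FPKM at ZT0, 121, 128, 139, 143 and 115 at ZT2, and 129, 56.9, 86.1, 87.1 and 118 at ZT4. Later samples gave 102, 127, 100.5, 82.7 and 64.8 FPKM at ZT9, 76.5, 108, 96.6, 49.1 and 94.5 at ZT14, and 94.2, 56.8, 88.7, 47.3 and 57.2 at ZT19. Each ZT2 sample was above each sample of ZT14 and of ZT19, while the other times overlapped. The mean was 129 ± 11.6 FPKM at ZT2 and 68.8 ± 21.1 at ZT19 (SD, n = 5 each). Day exceeded night by 0.48 ± 0.15 (SE; limma adjusted p = 0.306), and ZT2 exceeded ZT14 by 0.65 ± 0.23 (limma adjusted p = 0.435). The fitted wave peaked at ZT 4.23 with an amplitude, from mean to peak, of 0.31 ± 0.10.

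Mvd (chr8:122433601-122443422, minus strand), which makes isopentenyl diphosphate, had the largest difference of the 31. Its levels were 9.12, 12.6, 19.2, 10.2 and 21.3 FPKM at ZT0, 24.6, 14.4, 18.2, 14.3 and 23.9 at ZT2, and 21.9, 3.64, 15.4, 11.4 and 19.1 at ZT4. They were 14.2, 16.5, 13.3, 17.3 and 9.76 FPKM at ZT9, 3.30, 9.26, 0.121, 5.21 and 5.44 at ZT14, and 21.4, 10.8, 9.76, 7.46 and 7.18 at ZT19. The ZT14 samples lay below all ZT2 and all ZT9 samples; the lowest was ZT14 replicate 3. ZT2 exceeded ZT14 by 2.10 ± 0.45 (limma adjusted p = 0.0715), the lowest adjusted p of any member in any comparison, and by 1.59 without ZT14 replicate 3 (limma adjusted p = 0.187). The day minus night difference was 1.12 ± 0.29 (limma adjusted p = 0.276) and 0.87 without that sample, or 0.58 with the scores of 5 marker lists as terms. Its fitted wave peaked at ZT 2.68 with an amplitude of 0.73 ± 0.19 (limma adjusted p = 0.298), and the amplitude was 0.53 without ZT14 replicate 3.

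Fdps (chr3:89093588-89101959, minus strand) makes farnesyl diphosphate, the last product before the squalene branch. Samples gave 131, 109, 83.2, 101 and 121 FPKM at ZT0, 116, 134, 92.7, 95.9 and 183 at ZT2, and 169, 39.5, 72.9, 40.4 and 131 at ZT4. For the second part of the day they gave 36.9, 149, 118, 90.1 and 62.6 FPKM at ZT9, 77.4, 146, 31.9, 66.2 and 50.2 at ZT14, and 84.2, 69.2, 45.6, 39.1 and 37.8 at ZT19. All ZT2 samples exceeded all ZT19 samples, but ZT4 and ZT9 each held samples among the lowest of all and samples among the highest. Day exceeded night by 0.63 ± 0.26 (limma adjusted p = 0.391), and by 0.50 without ZT14 replicate 3. With the surface epithelium score as a term the difference was 0.10. Of the other members of the arm, Mvk (mevalonate kinase) had a day minus night difference of 0.37 ± 0.23, Acat2 (thiolase) 0.22 ± 0.17, Pmvk (phosphomevalonate kinase) 0.05 ± 0.18 and Idi1 (isomerase) 0.45 ± 0.46, which was 0.05 without ZT14 replicate 3. None of these differences over all samples was larger than 2 SE. Without ZT14 replicate 3, that of Mvk was 0.53.

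**Figure D2:**
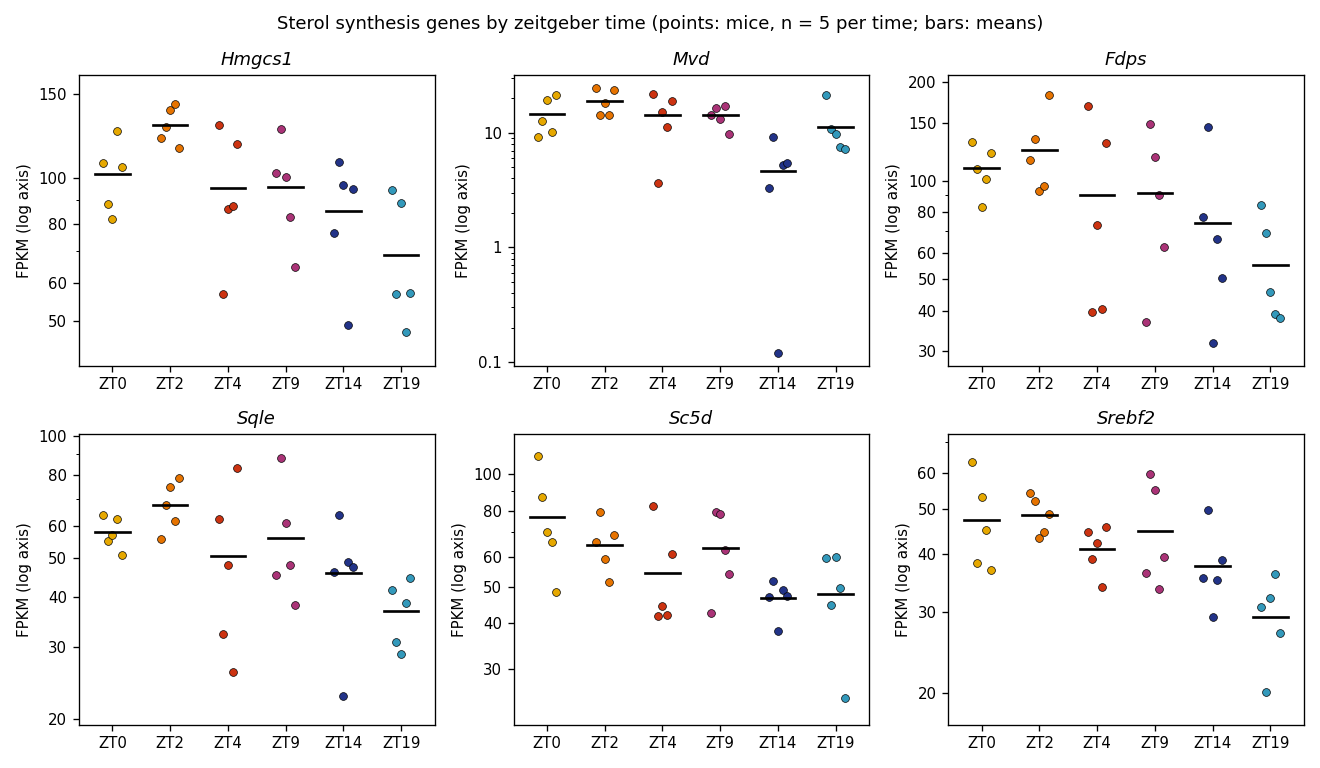
FPKM (log axis) against zeitgeber time for Hmgcs1, Mvd, Fdps, Sqle, Sc5d and Srebf2; each point is 1 mouse (n = 5 per time) and the bar is the mean. Hmgcs1 and Mvd at ZT2 lie above all ZT14 samples, Sqle and Srebf2 at ZT0 above all ZT19 samples, and the lowest Mvd point, at ZT14, is replicate 3.

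From squalene on, Sqle, Sc5d and Msmo1 were followed in every sample. Sqle (chr15:59315077-59331192, plus strand), squalene epoxidase, is the second controlled step of the pathway. It read 63.7, 55.0, 57.0, 62.4 and 50.7 FPKM at ZT0, 55.5, 67.5, 74.8, 61.6 and 78.7 at ZT2, and 62.3, 32.4, 48.1, 26.1 and 83.3 at ZT4. Afterwards it read 45.2, 88.1, 60.9, 48.0 and 38.2 FPKM at ZT9, 46.1, 63.7, 22.8, 48.9 and 47.5 at ZT14, and 41.6, 30.9, 28.9, 38.7 and 44.5 at ZT19. The samples of ZT0 and of ZT2 were all above those of ZT19, whereas ZT4 ranged from the second lowest to the second highest value of all 30. Day exceeded night by 0.46 ± 0.17 (limma adjusted p = 0.361), and ZT0 exceeded ZT19 by 0.65 ± 0.27 (limma adjusted p = 0.271). With the surface epithelium score as a term these were 0.19 and -0.02. Without ZT14 replicate 3, day minus night was 0.34.

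Sc5d (chr9:42251595-42264256, minus strand) encodes the sterol C5 desaturase that acts near the end of the pathway. Its values were 112, 86.8, 70.1, 66.0 and 48.4 FPKM at ZT0, 66.0, 79.1, 59.2, 51.4 and 68.7 at ZT2, and 82.3, 41.7, 44.5, 42.0 and 61.2 at ZT4. Further on they were 42.6, 79.1, 78.4, 62.5 and 54.0 FPKM at ZT9, 46.8, 51.9, 38.1, 48.8 and 47.2 at ZT14, and 59.6, 44.6, 60.1, 49.7 and 25.1 at ZT19. ZT14 was tight and low, yet it overlapped each of the other times. The day minus night difference was 0.36 ± 0.15 (limma adjusted p = 0.423), against 0.32 without ZT14 replicate 3, 0.11 with the surface epithelium score as a term and 0.06 with the scores of 5 marker lists. Msmo1 (chr8:64718139-64733792, minus strand), the methylsterol oxidase, was the most abundant enzyme of this arm. It gave 85.2, 72.3, 55.4, 84.2 and 68.9 FPKM at ZT0, 97.7, 110.3, 100, 95.2 and 126 at ZT2, and 108, 57.4, 83.2, 78.8 and 94.8 at ZT4. In later samples it gave 91.2, 103, 71.2, 65.1 and 70.9 FPKM at ZT9, 80.2, 64.8, 53.0, 93.5 and 124 at ZT14, and 66.5, 70.1, 78.7, 89.0 and 52.5 at ZT19. All ZT2 samples lay above all ZT0 and all ZT19 samples. The day minus night difference was 0.24 ± 0.13 (limma adjusted p = 0.525), and 0.16 without ZT14 replicate 3.

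Lss and Tm7sf2 were singled out after their values had been seen. Lss, lanosterol synthase, had a day minus night difference of 0.87 ± 0.38 (limma adjusted p = 0.425), which was 0.63 without ZT14 replicate 3 and 0.04 with the scores of 5 marker lists as terms. Tm7sf2, a sterol C14 reductase, had a mean of 27.7 ± 12.7 FPKM at ZT0, 31.3 ± 20.9 at ZT14 and 10.7 ± 3.64 at ZT19 (SD, n = 5 each). The highest ZT14 value, 66.0 FPKM, was that of ZT14 replicate 3. ZT0 exceeded ZT19 by 1.23 ± 0.38 (limma adjusted p = 0.126) and by 1.18 with the surface epithelium score as a term. Hsd17b7 differed by 0.42 ± 0.19 between day and night, Nsdhl (a sterol dehydrogenase) by 0.37 ± 0.22 and Cyp51 (lanosterol demethylase) by 0.18 ± 0.20. Fdft1 (squalene synthase) at -0.03 ± 0.15, Ebp (sterol isomerase) at -0.09 ± 0.21 and Dhcr7, the last reductase, at -0.37 ± 0.30 had the opposite sign, and the 6 adjusted p values ran from 0.436 to 0.967 (limma).

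Of the regulators, Srebf2 had the smallest p in the cosine fit and in day against night. It (chr15:82147181-82205379, plus strand) encodes the SREBP form that drives cholesterol genes. Its samples gave 63.5, 38.3, 53.1, 45.0 and 36.9 FPKM at ZT0, 54.2, 52.1, 43.3, 44.7 and 48.9 at ZT2, and 44.6, 39.0, 42.2, 33.9 and 45.9 at ZT4. The remaining times gave 36.4, 59.7, 55.0, 33.6 and 39.4 FPKM at ZT9, 35.5, 49.9, 29.2, 35.1 and 38.9 at ZT14, and 30.8, 20.1, 32.1, 36.2 and 27.0 at ZT19. ZT19 held the 2 lowest of the 30 samples, and all its samples lay below those of ZT0 and of ZT2. ZT0 exceeded ZT19 by 0.68 ± 0.19 (limma adjusted p = 0.1002), and day exceeded night by 0.43 ± 0.12 (limma adjusted p = 0.291). With the surface epithelium score as a term these were 0.35 and 0.30, and with the scores of 5 marker lists 0.11 and 0.20. The cosine amplitude was 0.28 ± 0.09 with a peak at ZT 5.08.

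Insig2 (chr1:121304353-121332589, minus strand), a retention protein for Scap, was the most abundant regulator and the least even. It measured 133, 143, 70.7, 180.5 and 55.1 FPKM at ZT0, 62.5, 98.3, 170.1, 222 and 72.6 at ZT2, and 186, 98.8, 153, 404 and 131 at ZT4. Later it measured 210.1, 71.3, 79.2, 113 and 122 FPKM at ZT9, 184, 194, 800.1, 331 and 102 at ZT14, and 118, 85.6, 306, 81.0 and 129 at ZT19. Single high samples at ZT4, ZT14 and ZT19 pulled up the means, and all times overlapped. ZT2 minus ZT14 was -1.16 ± 0.48 (limma adjusted p = 0.480) and -0.74 without ZT14 replicate 3, the highest sample. Day minus night was 0.21 ± 0.16 for Insig1, -0.24 ± 0.18 for Srebf1 (whose products drive fatty acid genes and, in 1 isoform, sterol genes) and -0.25 ± 0.23 for Scap. These 3 did not pass (limma adjusted p of 0.656 to 0.730).

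Sterol carriage and efflux held a pair of pumps, Abcg1 and Abca1, and a carrier. Abcg1 (chr17:31057675-31117988, plus strand) exports sterol to lipoprotein particles. Values of 19.9, 9.88, 15.5, 14.7 and 16.5 FPKM were found at ZT0, 18, 17.7, 11.7, 15.2 and 14.0 at ZT2, and 22.2, 6.20, 9.13, 7.67 and 20.5 at ZT4. At night and before it, values were 13.2, 17.8, 16.9, 18.5 and 9.89 FPKM at ZT9, 11.2, 15.5, 13.2, 12.2 and 6.70 at ZT14, and 9.96, 8.35, 15, 7.86 and 7.68 at ZT19. ZT4 had 2 high and 3 low samples, and all times overlapped. ZT0 exceeded ZT19 by 0.61 ± 0.29 (limma adjusted p = 0.378), a difference that was -0.08 with the surface epithelium score as a term. Day minus night was 0.38 ± 0.19 for Abcg1 and -0.29 ± 0.20 for Abca1, which loads cholesterol on apolipoproteins. Neither passed, both were within 2 SE of 0, and with the surface epithelium score as a term they were 0.10 and -0.02. For Stard4, a cytosolic sterol carrier, it was 0.40 ± 0.20, and 0.51 without ZT14 replicate 3. Stard4 had a mean of 13.6 ± 1.52 FPKM at ZT9 and 7.59 ± 2.44 at ZT19 (SD, n = 5 each), and these samples did not overlap.

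The 5 fatty acid genes had their fitted peaks between ZT 12.3 (Acaca) and ZT 20.9 (Scd2), though none of these waves passed. The SE of the peak ran from 1.29 h for Fasn to 5.68 h for Scd2, whose amplitude was 0.06 ± 0.10. Fasn (chr11:120805846-120824547, minus strand), fatty acid synthase, builds palmitate. Its samples held 63.1, 34.8, 55.7, 36.1 and 23.1 FPKM at ZT0, 60.8, 40.8, 53.3, 56.3 and 97.6 at ZT2, and 87.4, 27.7, 45.4, 24.6 and 68.1 at ZT4. They held 22.7, 59.9, 30.5, 32.5 and 23.7 FPKM at ZT9, 37.6, 98.9, 32.5, 44.7 and 52.0 at ZT14, and 100, 64.9, 39.5, 48.0 and 236 at ZT19. ZT19 had the 2 highest samples and ZT9 mostly low ones, with overlap. ZT9 minus ZT19 was -1.28 ± 0.41 (limma adjusted p = 0.349), and ZT0 minus ZT19 was -0.95 ± 0.41 (limma adjusted p = 0.302). The latter was -0.27 with the adipocyte score as a term and -1.82 with the surface epithelium score. The fitted peak was at ZT 19.8 with an amplitude of 0.49 ± 0.20.

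Scd2 (chr19:44293674-44306864, plus strand) is the desaturase form known from brain and was the most abundant of the 31. It showed 233, 225, 197, 284 and 237 FPKM at ZT0, 249, 224, 310.3, 275 and 246 at ZT2, and 235, 155, 259, 219.5 and 237 at ZT4. It then showed 292, 218, 243, 151 and 137 FPKM at ZT9, 182, 269.6, 374, 188 and 331 at ZT14, and 205, 184, 332, 171 and 201 at ZT19. The times overlapped throughout, and day minus night was -0.06 ± 0.14 (limma adjusted p = 0.916). Scd1, the desaturase form of liver, fat and skin glands, was chosen after its values were seen. It had 38.7, 29.1, 46.6, 48.5 and 40.4 FPKM at ZT0, 35.8, 49.0, 54.2, 72.8 and 324 at ZT2, and 152, 28.2, 50.8, 70.5 and 50.3 at ZT4. From then on it had 70.2, 178, 34.4, 51.4 and 24.0 FPKM at ZT9, 29.5, 80.8, 79.0, 28.1 and 85.6 at ZT14, and 237, 172, 104, 27.3 and 679.5 at ZT19. Of the ZT19 samples, 4 were above all ZT0 samples and the other was below them. ZT0 minus ZT19 was -1.90 ± 0.64 (limma adjusted p = 0.164) and -0.65 with the adipocyte score as a term. Day minus night was -0.49 ± 0.27 for Fasn and -0.52 ± 0.41 for Scd1, and without ZT19 replicate 5, the highest sample of both, it was -0.29 and -0.25.

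Acaca, which makes malonyl-CoA, ranged from 5.07 to 234 FPKM, with its highest value in ZT14 replicate 3 and the next at 39.9 FPKM. Its ZT2 minus ZT14 difference was -1.25 ± 0.62 and, without that sample, -0.46; day minus night was -0.43 ± 0.40 and -0.03. Acly, ATP citrate lyase, differed between day and night by -0.06 ± 0.18. No difference of these 2 genes passed (limma).

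**Figure D3:**
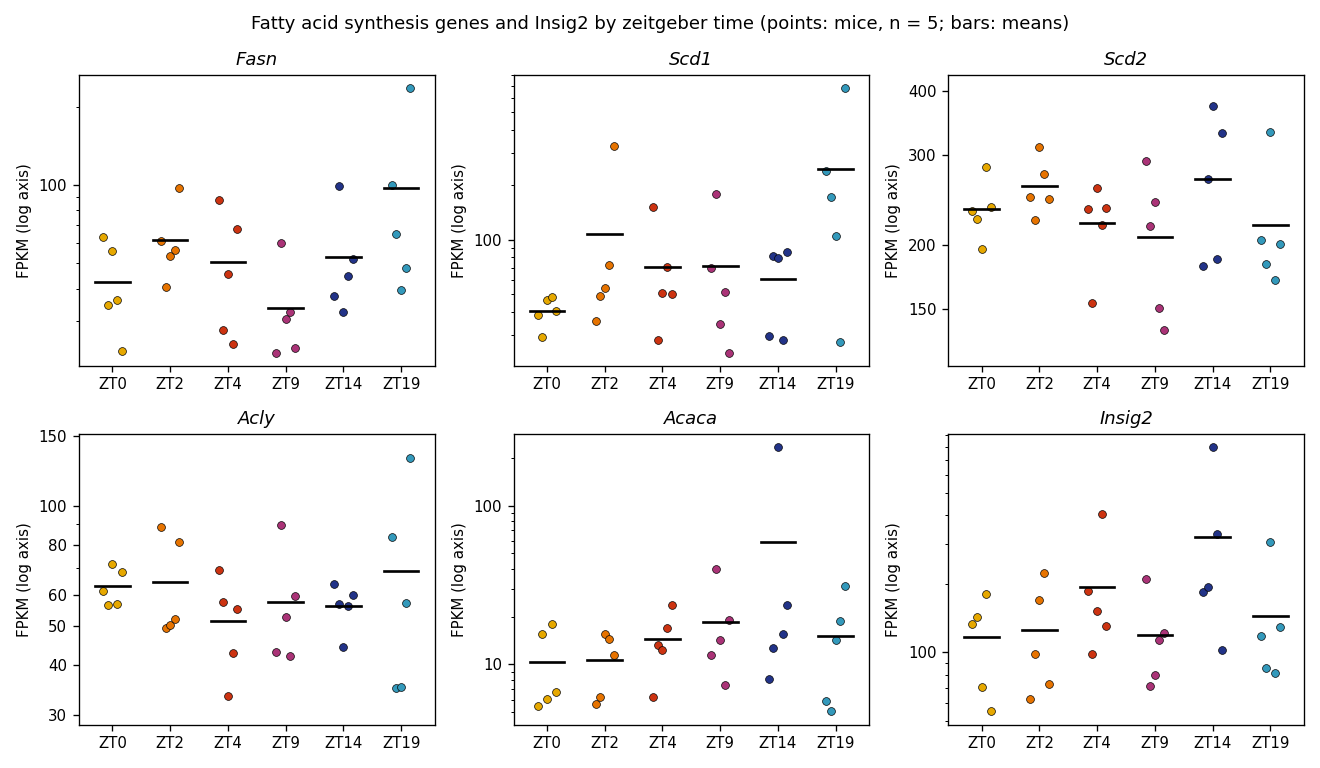
FPKM (log axis) against zeitgeber time for Fasn, Scd1, Scd2, Acly, Acaca and the regulator Insig2; each point is 1 mouse (n = 5 per time) and the bar is the mean. The highest Fasn and Scd1 points are at ZT19, and the highest Acaca and Insig2 points are ZT14 replicate 3.

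ZT0 against ZT19 was the step with the most members at an unadjusted p below 0.05, 11 of 31 beside 13.0% of all genes. Higher at ZT0 were 9 (Hmgcs1, Fdps, Sqle, Tm7sf2, Hsd17b7, Sc5d, Srebf2, Stard4 and Abcg1; 7.05% of all genes) and lower 2 (Fasn and Scd1; 5.92%). ZT2 minus ZT14 had 4 higher (Hmgcs1, Mvd, Fdps and Sqle; 5.48% of all genes) and 1 lower (Insig2; 3.64%). ZT9 minus ZT19 had 7 higher (Hmgcs1, Sqle, Lss, Tm7sf2, Hsd17b7, Srebf2 and Stard4; 4.51%) and again Fasn and Scd1 lower (4.16%); the comparisons share the ZT19 samples. No overlap between the 5 and 5 samples was seen for 6 members at ZT2 above ZT19 (Hmgcs1, Fdps, Sqle, Msmo1, Srebf2 and Stard4; 2.43% of all genes). It was seen for 2 at ZT0 above ZT19 (Sqle and Srebf2; 2.99%), for 2 at ZT2 above ZT14 (Hmgcs1 and Mvd; 0.544%) and for 2 at ZT9 above ZT19 (Tm7sf2 and Stard4; 0.86%). In no case were all samples of the earlier time in such a pair below those of the later.

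Tissue markers moved with the same steps. The 10 surface epithelium markers summed to 10853 to 21929.5 FPKM at ZT0, 10155 to 17858 at ZT2 and 2676 to 4335 at ZT19, and 9 of 10 were higher at ZT0 than ZT19 at an unadjusted p below 0.05. RPE markers went the other way, 6317 to 11256 FPKM at ZT0 and 11847 to 16332 at ZT19, with 8 of 10 lower at ZT0. Muscle markers, 3710.5 to 6943 FPKM at ZT0 and 7624 to 29893 at ZT19, were lower at ZT0 for 10 of 10 genes. Adipocyte markers had a median sum of 32.1 FPKM at ZT0 and 589.8 at ZT19, and 5 of 7 tested were lower at ZT0; Adipoq was listed at 0 in 7 samples, Plin1 in 8 and Lep in 20. The 7 markers of sebaceous or Harderian gland summed to at most 4.44 FPKM in any sample. With the surface epithelium score as a term, chosen after seeing the data, 1 member (Tm7sf2) was higher at ZT0 than ZT19 at an unadjusted p below 0.05, against 3 with the RPE score and 3 with the scores of 5 marker lists. Shares over all genes in these refits are not given here. No score puts a number on how many cells of a tissue a sample held.

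The sum of surface epithelium markers divided the samples in 2 sets with a gap between them, 11 samples of 2450.3 to 4756 FPKM and 19 of 7978 to 21929.5 FPKM, so relations are given within each set. The low set held all 5 samples of ZT19, 3 of ZT4, 2 of ZT14 and 1 of ZT9. Fdps ranged from 31.9 to 84.2 FPKM in the low set and from 62.6 to 183 FPKM in the high set. Its correlation with the marker score was r = 0.432 (rho = 0.409) over the 11 and r = 0.465 (rho = 0.426) over the 19 samples, with adjusted permutation p values of 0.65 and 0.37. Sc5d had r = 0.721 (rho = 0.677, adjusted permutation p = 0.069) in the high set and r = 0.0549 (adjusted permutation p = 0.99) in the low set. Sqle had r = 0.455 in the low and 0.165 in the high set, with adjusted permutation p values of 0.65 and 0.79. Over the 124 relations of the 31 genes with the surface epithelium or adipocyte score on either side of the gap, 0 had an adjusted permutation p below 0.05 and 16 had an unadjusted one.

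Summed adipocyte markers were 7.88 to 179 FPKM in 23 samples and 382 to 1094 FPKM in 7. Scd1 ranged from 24.0 to 104 FPKM in the 23 and from 79.0 to 679.5 in the 7. Within the 7, r with the score was 0.922 for Fasn (rho = 0.893, exact permutation test, adjusted p = 0.15) and 0.905 for Scd1 (rho = 0.929, exact permutation test, adjusted p = 0.15). Within the 23, r was 0.338 for Fasn and 0.380 for Scd1 (adjusted permutation p = 0.54 and 0.45). Over all 30 samples, where no such gap was seen, Scd2 followed the myelin score with r = 0.684 and rho = 0.753 (100000 permutations, adjusted p = 0.00065 and 0.00062 over 217 relations). Without the 2 samples farthest from the median score r was 0.780. Abca1 followed the RPE score with r = 0.544 and rho = 0.520 (permutation, adjusted p = 0.02 and 0.025), and r was 0.435 without the 2 farthest samples. In all, 11 members had an adjusted p below 0.05 against the RPE score, 10 of them with a negative r. For Fdps r was -0.748 (rho = -0.770, adjusted permutation p = 0.00043, r without the 2 farthest samples -0.728). Shares over all tested genes are not given for these correlation counts. The permutations over 30 samples also shuffled across times, so differences between times enter these relations. After time means were subtracted, r with the RPE score was -0.653 for Fdps and 0.631 for Abca1. For Hmgcs1 it went from -0.506 to -0.304. The part of tissue makeup in the differences between times was not tested.

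**Figure D4:**
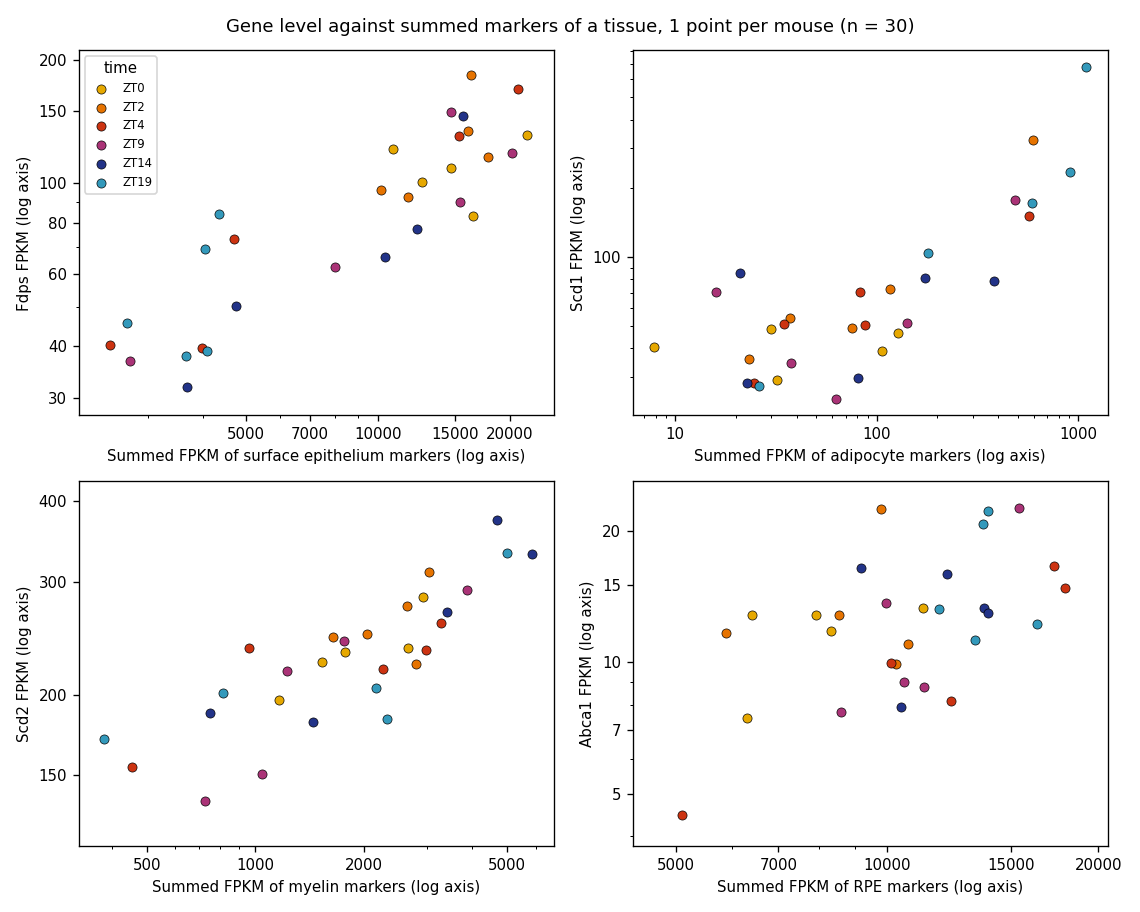
Gene FPKM (y, log axes) against the summed FPKM of a marker list (x, log axes) for Fdps and surface epithelium, Scd1 and adipocyte, Scd2 and myelin, and Abca1 and RPE; each point is 1 of 30 mice, coloured by time. The first 2 panels show a gap in the marker sum between low and high samples, with the ZT19 samples all in the low set for surface epithelium.

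The 31 genes were also compared with each other over the 30 samples, after the mean of each time was subtracted from log2(FPKM + 1); these r values describe the samples and carry no test, since the genes share libraries and tissue makeup. The median r was 0.157 over all 465 pairs, 0.287 over the 153 pairs of cholesterol enzymes, 0.259 over the 10 pairs of fatty acid genes and close to 0 (0.000633) over pairs of every 20th tested gene. Fdps and Sqle had the highest r (0.749), followed by Hmgcs1 and Scd2 (0.724), Sqle and Fasn (0.723) and Fasn and Scd1 (0.672). Abca1 ran against the rest, with a negative r for 24 of its 30 pairs, lowest with Fdps (-0.672) and Ebp (-0.642). Its r with the other pump, Abcg1, was -0.508. Between the regulators, Scap and Insig1 had r = -0.493.

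**Figure D5:**
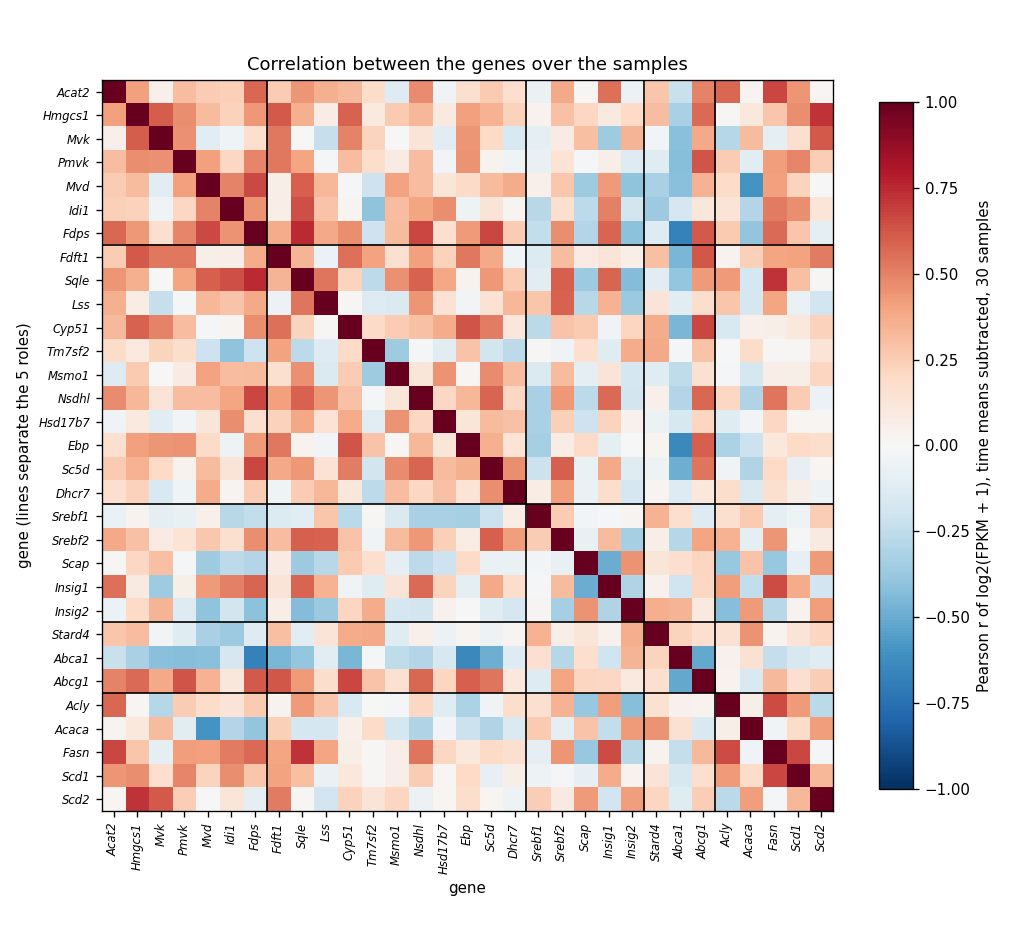
Pearson r between each pair of the 31 genes over 30 samples after time means were subtracted, with genes in the order of their roles and lines between roles; the diagonal is each gene with itself. The block of cholesterol enzymes at upper left is mostly red (median r 0.287), and the Abca1 row is mostly blue.

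Measured the same way against every tested gene, the genes near Sqle included Urah (r = 0.815), Mal2 (0.813) and Zfp750 (0.810), a regulator known from surface epithelium. The 5 genes nearest to Hmgcs1 were Adap1 (0.726), Scd2, Pak1 (0.716), Bcas1 (0.711), known from oligodendrocytes, and Gm15440 (0.709). Fasn was nearest to Mlec (0.747), Cyp2e1 (0.730), Sqle, Lrig1 (0.722) and Dgat2 (0.721), which makes triglyceride. Scd1 was nearest to Gpd1 (0.800), Mrap (0.789), A530016L24Rik (0.787), Thrsp (0.780) and Fabp4 (0.771), a fatty acid carrier of fat cells that is in the adipocyte list. Abca1 was nearest to Lamp2 (0.803), a lysosomal membrane gene, Vat1l (0.762), Itpr1 (0.760), Etnk1 (0.743) and Itgb8 (0.740). These values are among the highest over all tested genes and describe 30 samples.

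Genes of adjoining pathways were tested in the same way. Of 66 genes in 6 lists, 64 were in the table and 61 were tested; 0 passed the adjusted threshold in the cosine, any-difference or day against night tests. Higher by day were 1 gene and lower 8 at an unadjusted p below 0.05, or 1.64% and 13.1% of the 61, beside 6.21% and 4.33% of all genes. The one was Erlin2, an endoplasmic reticulum protein that limits SREBP activation, with a day minus night difference of 0.49 ± 0.18 (limma adjusted p = 0.354). Among genes of fatty acid supply, elongation and desaturation the differences were -0.39 ± 0.12 for Elovl5 (an elongase), -0.37 ± 0.14 for Me1 (a source of NADPH) and -0.55 ± 0.24 for Slc25a1 (the citrate carrier). In glycerolipid synthesis they were -0.54 ± 0.17 for Lpin1 (phosphatidate phosphatase), 0.31 ± 0.16 for Lpin2 and -0.29 ± 0.21 for Gpam. The other lists gave -1.04 ± 0.49 for Thrsp and -0.68 ± 0.39 for Mlxipl (both tied to lipogenesis), -0.70 ± 0.33 for Stard5, -0.33 ± 0.17 for Vldlr, -0.31 ± 0.16 for Nceh1, -0.33 ± 0.15 for Nus1, -0.45 ± 0.21 for Lbr and 0.33 ± 0.18 for Hacd2. In oxysterol metabolism Ch25h had 0.79 ± 0.45, Cyp7b1 0.51 ± 0.33 and Cyp27a1 -0.29 ± 0.23. The lowest adjusted p of these 18 genes was 0.306 (limma, Elovl5).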

How the data were processed

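RNA sequencing of 30 RPE samples (6 times, 5 mice each) was used. The values are deposited FPKM, which the authors computed, 1 per gene and sample, written with decimal commas; the unit is taken from the name of the table. Tools named in the submitters' processing notes are STAR, Cufflinks and DESeq2, with the build mm10, and no roles or versions are stated there; the annotation and the handling of reads shared between genes are not given in the sources used here. Each of the 30 value columns matched 1 sample by animal number and eye, and 0 value columns had no sample. Depth was estimated from the steps between low values, so no counting interval is given. An exact 0 can be a failed estimate.

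Genes that reached an FPKM of 1 in 5 or more samples were tested with limma 3.58.1 (R 4.3.3, mean-variance trend) on log2(FPKM + 1): a 24 h cosine by moderated F, 1 mean per time by moderated F, and contrasts, all two-sided, adjusted over 16741 genes by Benjamini-Hochberg with a threshold of 0.05. The steps were run on simulated data with planted changes, and the outcome is not given here. The planted changes were mostly larger than those of these genes, whose amplitudes had a median of 0.27. That check therefore does not cover changes as small as most of these. Correlations, motifs and figures used Python 3.11.15, numpy 2.4.6, pandas 2.3.3, scipy 1.17.1 and matplotlib 3.10.9. Marker scores are mean log2(FPKM + 1) of a list. Sets of samples on either side of a gap in summed markers were chosen after seeing the data. Positions are from GENCODE M21 on GRCm38, the assembly of mm10, where 51625 of 51904 gene IDs were found.

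Groups follow the labelled zeitgeber times. Nothing says that mice were matched across times, and replicate numbers are in accession order only. The members and lists were chosen with earlier results of these data known. Full values are given for the 6 members with the smallest p in the cosine fit, the 6 in day against night and the most abundant member of each role; Scd1, Acaca, Lss, Tm7sf2 and Stard4 were described more fully after their values were seen. Outside the list, the 3 genes with the smallest day against night p per pathway list and the 5 nearest genes of 5 members are named, except that some genes near Sqle are not reported here. Alternatives were a pseudocount of 0.1, no filter, no variance trend, median-ratio rescaling, eye side or marker scores as terms, and leaving out each sample.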

Additional observations from a re-analysis of the deposited data

Results flagged for a closer look

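In 7 of 78 sets of 5 samples (13 genes at 6 times), 1 sample lay far from the other 4 by Dixon's ratio of gap to range, with a critical value of 0.71; for normally distributed values about 1 in 20 sets does so by chance. The values here are FPKM without a log, and Scd1 and Acaca were included after their values were seen, so the 7 are not set against that rate. All 7 were the highest sample of their set. Mvd at ZT19 replicate 1 was at 21.4 FPKM, with the next at 10.8. Fasn at ZT9 replicate 2 was at 59.9 FPKM, with the next at 32.5. Insig2 reached 404 FPKM at ZT4 replicate 4, against 186 in the next sample, and 306 FPKM at ZT19 replicate 3, against 129. Scd2 in that same library, ZT19 replicate 3, was at 332 FPKM, with the next at 205. Scd1 at ZT2 replicate 5 was at 324 FPKM, against 72.8 in the next sample, and the adipocyte markers of that sample summed to 594 FPKM. Acaca at ZT14 replicate 3 was at 234 FPKM, with the next at 23.6; that is the library with 557 abundant genes listed at 0. Of the 7, 3 fell at ZT19.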

How the results depend on the processing

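Recomputed were 13 counts, the day minus night difference of the 31 genes, 11 other differences and 6 amplitudes. Of these values, 2339 kept their direction and their side of the threshold (counts: stayed within 1.5 times), 9 counts moved by more, 3 values passed the threshold and 28 differences changed sign, with limma adjusted p values from 0.883 up. The counts of 0 members past the adjusted threshold held under all alternatives for the cosine, any-difference, day against night, step and ZT9 against ZT19 tests. For ZT2 against ZT14 the count was 1 with eye side as a term and 0 to 1 when single samples were left out (1 without ZT4 replicate 2 and without ZT14 replicate 2). The member was Mvd, at 2.41 with eye side and 2.10 and 2.39 without those samples; the cause was not tested. Members higher by day at an unadjusted p below 0.05 numbered 8, against 2 with 5 marker scores as terms, 3 with the RPE score, 3 with the surface epithelium score, 12 with the adipocyte score and 6 to 11 without single samples. Members higher at ZT0 than ZT19 numbered 9, against 3, 3, 1 and 12 with those terms and 7 to 10 without single samples. Shares over all genes are given for the main fit only. Whether the members moved more than other genes under these alternatives was not tested. With the 5 scores as terms, day minus night turned to 0.19 for Scd1, 0.46 for Acaca, 0.0849 for Insig2 and 0.0383 for Scd2, and ZT0 minus ZT19 to -0.0437 for Sqle. With the surface epithelium score, day minus night turned to -0.0850 for Pmvk, -0.0053 for Cyp51, -0.0152 for Insig1, 0.0073 for Acaca and 0.0579 for Scd2, and ZT0 minus ZT19 to -0.0168 for Sqle and -0.0773 for Abcg1. With the RPE score it turned to -0.13 for Pmvk and -0.0267 for Cyp51, and with the adipocyte score to 0.0369 for Fdft1, 0.0064 for Ebp and 0.0225 for Acly (day minus night). Without single samples, it ranged across 0 for Pmvk (-0.0201 to 0.11), Fdft1 (-0.0859 to 0.0540), Ebp (-0.19 to 0.0038), Acly (-0.15 to 0.0821) and Scd2 (-0.12 to 0.0189). These terms take up differences shared with the markers; whether the genes changed within RPE cells was not tested. The adipocyte and surface epithelium terms were added after seeing the data.

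Median-ratio rescaling shifted no time by more than 0.045 (log2). No paired analysis was possible because the replicate numbers follow accession order and tie no mice together. The SE of a step between 2 times had a median of 0.32 over the 31 genes (0.39 over all genes), and differences near or under that size were not detectable. Differences of several SE also missed the adjusted threshold. Examples are Mvd at 2.10 ± 0.45 for ZT2 minus ZT14 (limma adjusted p = 0.0715) and Srebf2 at 0.68 ± 0.19 for ZT0 minus ZT19 (limma adjusted p = 0.1002). The counts of 0 therefore do not exclude changes above 1 SE. A time was sampled on 1 cycle only, so no repeat on a second day was measured. Depth per sample rests on an estimate.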
